A study of Mus musculus with 8 samples.

Results

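The sodium/proton exchanger genes *Slc9a5*, *Slc9a7*, *Slc9a8* and *Slc9a9* were followed in RNA-seq libraries of the primary motor cortex (M1) of the mouse. They are 4 of the 38031 genes with counts, and all 4 were among the 9959 genes tested, which had over 8 CPM (counts scaled to the size of the library) in 4 or more libraries. They were chosen by name with their measured fold changes between these same libraries known, *Slc9a9* as the gene with the clearest increase, and no numeric threshold was used. Their differences between treatments are therefore given as a description, with no test. Sodium/proton exchangers carry protons across a membrane in exchange for sodium or potassium, and so set the pH of the cytoplasm or, in organelles, of the lumen. The plasma membrane members oppose acid loading of the cell, whereas the organellar members leak protons out of endosomes and the Golgi against the proton pump, the V-ATPase. In neurons, the endosomal members are known for their part in receptor recycling and the growth of axons and dendrites, and human variants in this group of genes are linked to neurodevelopmental disorders.

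All mice were wild-type Swiss Webster males that received a lentivirus in M1 at postnatal day 21 to 25, and tissue was taken at postnatal day 49 to 53. Both treatments carried mCherry and a short hairpin RNA (shRNA) in mir-30 flanks, transcribed from a rat *Synapsin I* promoter that is active in neurons. The hairpin was either the *Fezf2 shRNA* (4 libraries) or a *non-silencing shRNA* (control, 4 libraries), and each library was treated as 1 mouse. The tissue followed the mCherry signal but held all layers and the meninges, with transduced and other cells together. In such bulk samples, fewer cells of a type and less RNA per cell cannot be told apart.

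Counts over 1 transcript interval per gene summed to 54684016 to 58003814 per library, where a read under overlapping intervals can count more than once. *Fezf2*, which encodes a transcription factor of deep-layer projection neurons and is the target of the hairpin, had 687.5, 767, 734.7 and 702.2 normalized counts in the 4 control libraries and 620.6, 582.9, 568.3 and 592.5 in the 4 *Fezf2 shRNA*-treated libraries. The log2 fold change was -0.29 (standard error, SE, 0.0781, adjusted p = 0.0824 in edgeR's quasi-likelihood test) and the treatments did not overlap. It was past the threshold in both DESeq2 fits (adjusted p = 0.0256) and was -0.18 with an offset for gene length, and the adjusted p ranged from 0.0256 to 0.447 over all alternatives in edgeR and DESeq2. Normalized counts are the raw counts after scaling each library to the mean effective library size. All 10 markers of cortical excitatory neurons passed the filter, and the 4 markers of meninges did not. The 7 oligodendrocyte markers were all lower on average after *Fezf2 shRNA* (median log2 fold change -0.55, 0 past the threshold, where 0.131% of all genes tested were past it as decreased, and 5 with an unadjusted p under 0.05, where 19.6% of all genes tested had one), with summed levels of 46845 to 76875 against 63046 to 114298 normalized counts in controls. The 6 markers of endothelial cells and pericytes summed to 4182 to 4400 against 4476 to 5875, without overlap. This sum is mostly *Rgs5* (2378 ± 115 against 2964 ± 261, SD, n = 4 each), the only marker of this list without overlap. *Kdr* was slightly higher on average (357 ± 41.4 against 350 ± 35.1), and the other markers were lower with overlap. No share of sums without overlap was computed to set beside this. No marker of either list was at 0 in all libraries. Their part in the values of the exchangers was not tested.

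The hairpin sequence was compared with the transcripts of the 4 genes, since a long enough match could put a gene within reach of the hairpin itself. The paper made its own alignment search, and the match length it took as a concern is longer than any run found in these 4 genes. The sense strand of the *Fezf2 shRNA* is shown first, with the 7 bases that face bases 2 to 8 of its antisense strand (the seed, if that strand is the guide) in capitals, followed by the site in each gene with the longest run of identical bases, which is in capitals.
Fezf2 shRNA, sense: gggaactacaaGAATCACa
Slc9a5: tgtggaggcctCTACAAGccacggcgcagg
Slc9a7: caatctttaacGAACTACAtgcagatgtgg
Slc9a8: aagcgcagatgCTACAAGAtgctgccccag
Slc9a9: ttcaccttccAGAATCACAttttcaatgct
The longest run was 9 nt in *Slc9a9*, 8 nt in *Slc9a7* and *Slc9a8* and 7 nt in *Slc9a5*, whereas *Fezf2* matched all 19 nt. A run of at least 9 nt was present in 19.2% of the 9936 tested genes with a transcript sequence, and one of at least 8 nt in 52.8%. The run in *Slc9a9* covers the seed match, GAATCAC, which was searched on the sense strand and was found in 19.7% of these genes and in none of the other 3 exchangers. It is coding and falls in exon 10 of 16 in the counted transcript (plus strand of chromosome 9, 95019178 to 95019186, GRCm38). The run in *Slc9a5* is coding, in exon 12 of 16 (chromosome 8, 105359435 to 105359441, plus strand) and so is that in *Slc9a7*, in exon 6 of 17 (chromosome X, 20166083 to 20166090, minus strand). The run in *Slc9a8* lies outside the coding sequence in the last exon, 17 of 17 (chromosome 2, 167475877 to 167475884, plus strand). Such matches are a description of letters and not of binding.

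*Slc9a9* encodes NHE9, an exchanger of recycling and late endosomes, and its transcript was the most counted of the 4. It had 3927.5, 4208.5, 4123 and 3925.4 normalized counts in the control libraries. In the *Fezf2 shRNA*-treated libraries it had 6331.5, 5811.8, 5726.6 and 6012.7. Each treated library lay above each control library, and the spread within a treatment was small beside the gap. The means were 5971 ± 269 after *Fezf2 shRNA* and 4046 ± 142.5 in controls (SD, n = 4 each), a level 47.6% higher in the fit (log2 fold change 0.56, SE 0.0548). *Slc9a9* was past the threshold used for all genes (adjusted p of at most 0.05 and a log2 fold change of at least 0.2 in size) as increased. It was the only one of the 4 to be so, where 1.96% of all genes tested were past it as increased and 0.131% as decreased. It was also the only one whose treatments did not overlap, against 11.8% of all genes tested. Nothing is read from these counts, since the choice of the genes used the same contrast. When control replicate 1 was left out, edgeR put 0 genes past the threshold (1568 had an unadjusted p under 0.05), so that *Slc9a9* was not past it either, with a log2 fold change of 0.55.

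*Slc9a7* encodes NHE7, which works in the trans-Golgi network and related compartments. It had 1881.6, 2115.1, 1770.4 and 1748.8 normalized counts in the control libraries. In the treated libraries it had 2281.7, 1938.6, 2148.7 and 1956.2. Control replicate 2 lay among the treated libraries, and the other 3 controls lay below all of them. The means were 2081 ± 164 and 1879 ± 168 (SD, n = 4 each) with a log2 fold change of 0.15 (SE 0.0823).

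*Slc9a8* encodes NHE8, an exchanger of the Golgi and of some apical membranes. It had 1003.3, 1028.1, 954 and 1164.2 normalized counts in the control libraries. In the treated libraries it had 1002.1, 938.7, 871.8 and 1016.4. The treatments overlapped, and both the lowest value and the lowest mean were those of the treated libraries. The means were 957 ± 66.2 and 1037 ± 90 (SD, n = 4 each), with a log2 fold change of -0.12 (SE 0.0849).

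*Slc9a5* encodes NHE5, which is largely restricted to the brain and cycles between recycling endosomes and the neuronal surface. It had 650.2, 737, 667.8 and 812.1 normalized counts in the control libraries. In the treated libraries it had 738.7, 926.6, 690.7 and 693.6. Treated replicate 2 stood above all other libraries, while the other 3 treated libraries lay within the control range. The means were 762 ± 112 and 717 ± 73.8 (SD, n = 4 each), with a log2 fold change of 0.09 (SE 0.116) that was -0.02 without *Fezf2 shRNA* replicate 2. Counting alone, with each count taken as independent, gave a coefficient of variation of 3.68% for *Slc9a5*, 2.25% for *Slc9a7*, 3.17% for *Slc9a8* and 1.41% for *Slc9a9*. Sequencing was paired-end, so these values are too low if both reads of a pair were counted. The replicates varied more, by 10.3% and 14.6% for *Slc9a5* in control and treated libraries and by 3.52% and 4.5% for *Slc9a9*, the steadiest of the 4.

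**Figure D1:**
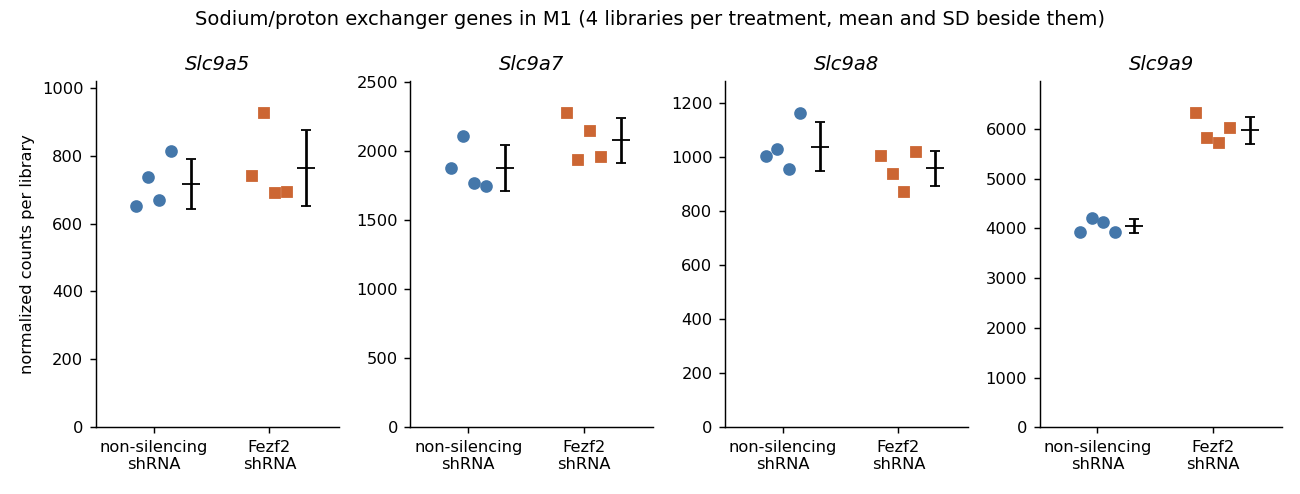
Normalized counts (y axis, from 0, one scale per gene) of the 4 exchanger genes in each control (circles) and *Fezf2 shRNA*-treated library (squares), with the mean and SD of each treatment as a bar beside the points. Only for *Slc9a9* are all treated libraries, from 5726.6 to 6331.5, above all control libraries, from 3925.4 to 4208.5.

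Reads were counted from the start to the end of a transcript with its introns, and the 4 genes differ widely in this span. In GRCm38, *Slc9a5* spans 19.9 kb on chromosome 8 (105348843 to 105368743), of which 17.6% is exonic. *Slc9a8* spans 55.3 kb on chromosome 2 (167421712 to 167477000), 8.18% of it exonic. *Slc9a7* spans 186.1 kb on chromosome X (20105755 to 20291807), 1.35% of it exonic, and *Slc9a9* spans 560.5 kb on chromosome 9 (94669909 to 95230445), 0.619% of it exonic. Genes that lie inside 2 of these intervals could add to their counts, as strand was not stated to be used in counting. The antisense gene *Gm16262*, inside *Slc9a9*, had a mean of 45.5 raw counts, *Mir7656* had 0.75, and the pseudogene *Gm9083*, inside *Slc9a7*, had 4.

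The 4 genes fall in 4 classes of span, and the fold change of all genes tested differed between these classes. The median log2 fold change was -0.12 in genes under 10 kb and 0.29 in the 407 genes over 300 kb. *Slc9a9* lay 0.27 above the median of the longest class, where 23 genes had a larger log2 fold change. *Slc9a7* lay at the median of its class, 0.15 in 1297 genes of 100 to 300 kb. *Slc9a8* lay 0.13 below the median of 3119 genes of 30 to 100 kb (0.01), and *Slc9a5* lay 0.16 above that of 2983 genes of 10 to 30 kb (-0.08). With a per-library offset for gene length, the log2 fold change was 0.25 for *Slc9a9*, which was then not past the threshold, where the median of the genes over 300 kb was 0.001 (middle 50% from -0.095 to 0.094), and -0.03 for *Slc9a7*, a change of sign. It was 0.15 for *Slc9a5* and -0.15 for *Slc9a8*, each farther from 0 than without the offset. What sets the trend with gene span was not tested.

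**Figure D2:**
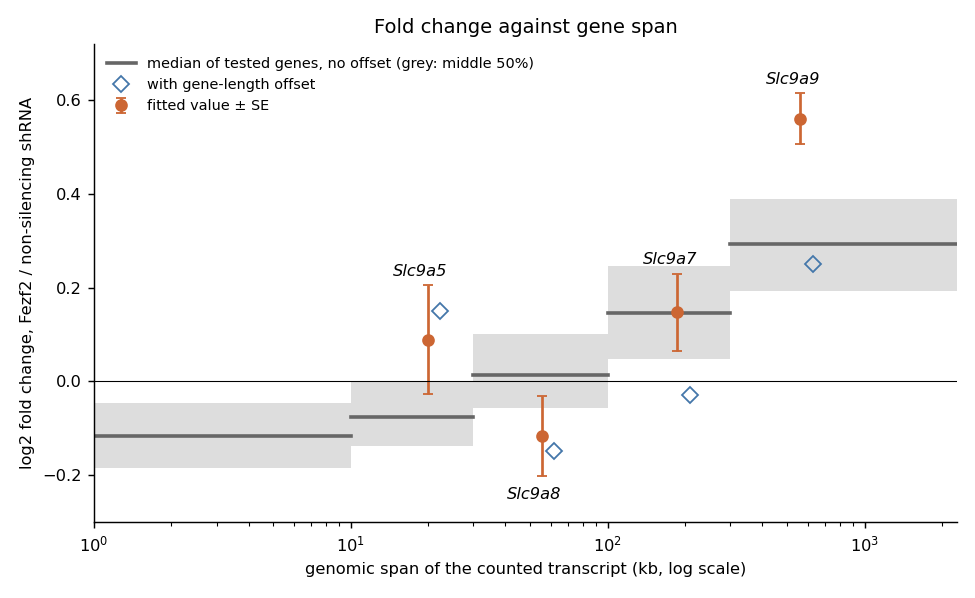
Log2 fold change between treatments (y axis) against the genomic span of the counted transcript (x axis, log scale, kb). Circles with SE are the 4 exchanger genes, diamonds (shifted right for clarity) the same genes with the gene-length offset, and lines with grey bands the median and middle 50% of tested genes per span class. The lines and bands are without the offset, so only the circles compare with them: *Slc9a9* stands above the band of the longest genes at 0.56, and *Slc9a7* sits on its class median.

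The 2 longest of the genes were also set beside their span class library by library, as the log2 ratio to the mean of the controls. The median of the genes over 300 kb was 0.37, 0.19, 0.3 and 0.28 in the 4 treated libraries. *Slc9a9* was at 0.65, 0.52, 0.5 and 0.57 in them, above that median in each by 0.2 to 0.34. In the control libraries *Slc9a9* differed from the median of these long genes by -0.04 to 0.08. Each gene is set against its own mean of the controls, so this closeness follows from the measure. The gap in the treated libraries is a description, since *Slc9a9* was chosen on the same contrast. *Slc9a7* was at 0.28, 0.05, 0.2 and 0.06 in the treated libraries, where the median of its own class, 100 to 300 kb, was 0.16, 0.09, 0.17 and 0.16, so that it lay above this median in 2 and below it in 2.

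**Figure D3:**
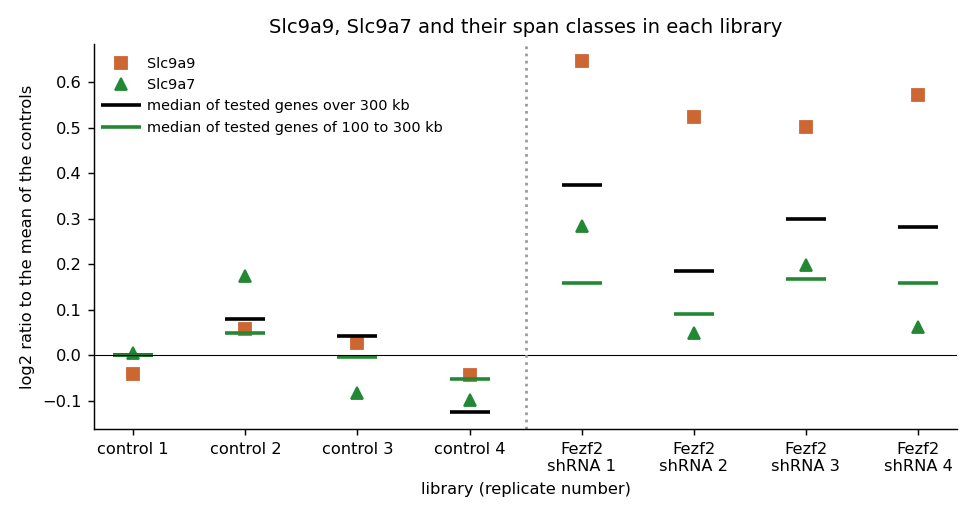
Log2 ratio to the mean of the controls (y axis) in each library (x axis) for *Slc9a9* (squares), *Slc9a7* (triangles), and the medians of the 407 tested genes over 300 kb (black bars) and of the 1297 of 100 to 300 kb (green bars). *Slc9a9* lies above the black bar in each treated library, from 0.5 to 0.65, and *Slc9a7* lies on either side of the green bar.

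Transcripts of 1 gene that share their start but end at different places divided 3 of the genes into segments, and the value of a segment is the difference between successive transcripts. In *Slc9a9*, the first 48.9 kb had 423.9, 324.1, 366.9 and 289.8 normalized counts in controls and 592.4, 418.1, 366.2 and 449.5 in treated libraries, which overlapped. The other 511.6 kb had 3503.6, 3884.4, 3756.2 and 3635.6 in controls and 5739.1, 5393.8, 5360.4 and 5563.2 in treated libraries. The long segment thus carried most of the counts of the gene, 91.3% in controls and 92.4% in treated libraries on average. Its treatments did not overlap, a description, since the gene was chosen for its increase. Its log2 difference was 0.58 (SE 0.0391), and that of the first segment was 0.37 (SE 0.187). Per kb, both segments had close levels in controls, 7.18 and 7.22 normalized counts. A 2.866 kb transcript with a retained intron inside the long segment had 18.9 ± 3.68 normalized counts in controls and 18.9 ± 5.95 after *Fezf2 shRNA* (SD, n = 4 each), a low count at which the treatments overlapped.

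The segments of *Slc9a7* did not all differ in the same direction. Its first segment, 127.3 kb long and 0.914% exonic, had a log2 difference of 0.25 (SE 0.115) and overlapping treatments. Its last segment, the 14.3 kb at the 3′ end, had 303.9, 335.5, 305.9 and 298.6 normalized counts in controls and 277.5, 224.1, 247.8 and 252.3 in treated libraries. Each treated library was below each control library there, the opposite side from the gene as a whole, with a log2 difference of -0.31 (SE 0.0733). The share of the counts of *Slc9a7* in this segment was 15.9% to 17.3% in controls and 11.5% to 12.9% in treated libraries, without overlap. Of all genes tested, 11.8% did not overlap, and no such share was computed for segments, so these values are a description. The 2 segments between had log2 differences of 0.11 (SE 0.12) and 0.28 (SE 0.194) with overlapping treatments.

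*Slc9a8* divided into 6 segments, none of them higher after *Fezf2 shRNA* on the log2 scale. The last, 2.36 kb and all exon, had 254 ± 28.2 normalized counts in controls and 249 ± 14.5 after *Fezf2 shRNA* (SD, n = 4 each), a log2 difference of -0.02 (SE 0.0911). It carried 24.6% and 26.1% of the counts of the gene. The third segment, 10.9 kb and 2.57% exonic, had 146.6, 119.7, 132.8 and 130.3 in controls and 91.8, 96.5, 118.4 and 117.5 in treated libraries. All treated libraries were lower there, the nearest pair being 118.4 and 119.7, with a log2 difference of -0.32 (SE 0.111). As for *Slc9a7*, no share of segments without overlap was computed to set beside this. *Slc9a5* had 1 counted transcript and could not be divided.

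**Figure D4:**
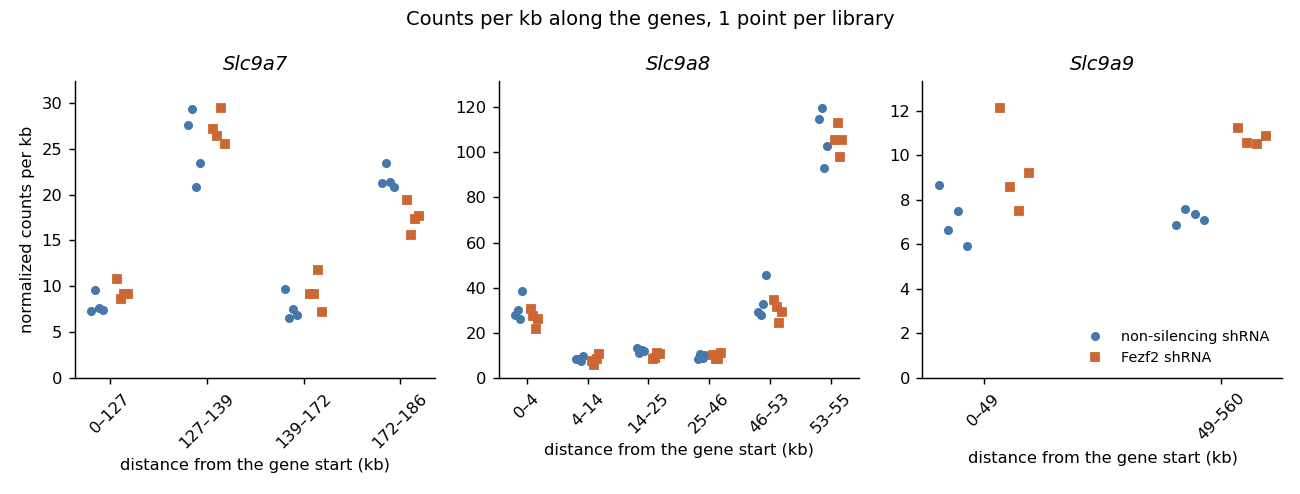
Normalized counts per kb (y axis, from 0) in successive segments of *Slc9a7*, *Slc9a8* and *Slc9a9* (x axis, distance from the gene start in kb), 1 point per library, circles for control and squares for *Fezf2 shRNA*. The treatments separate upward in the long segment of *Slc9a9* and downward in the last segment of *Slc9a7*.

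The levels of the 4 genes were compared per kb of the counted interval. The choice of the genes did not rest on levels between genes, but the order tested was taken from these same libraries. The ratios also depend on the length divided by, as the spliced length below shows. In controls, *Slc9a5* had 36 ± 3.71 normalized counts per kb, *Slc9a8* 18.8 ± 1.63, *Slc9a7* 10.1 ± 0.902 and *Slc9a9* 7.22 ± 0.254 (SD, n = 4). After *Fezf2 shRNA* the order was the same, with 38.3 ± 5.61, 17.3 ± 1.2, 11.2 ± 0.881 and 10.7 ± 0.48. *Slc9a5* was above *Slc9a8* and *Slc9a8* above *Slc9a7* in 8 of 8 libraries, by 1.04 and 0.76 on the log2 scale (adjusted p = 0.0117 for both, two-sided exact paired permutation test over the 8 libraries, 3 pairs). *Slc9a7* was above *Slc9a9* in 7 of 8 libraries, by 0.27. No p is given for this pair, since its treated libraries hold the *Slc9a9* values that the choice of the genes used. Within treatments, this last gap was 0.48 ± 0.102 in controls and 0.07 ± 0.0958 after *Fezf2 shRNA* (SD, n = 4 each), so that these neighbours did not differ beyond their spread in the treated libraries. The smallest p that 8 libraries allow is 0.0078. Per kb of spliced transcript the order turned around, from *Slc9a9* (1167 normalized counts per kb in controls) over *Slc9a7* (748) and *Slc9a8* (229.5) to *Slc9a5* (204.9), and the last pair did not differ (log2 ratio -0.07, adjusted p = 0.352, exact permutation test).

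Other genes that handle protons were read from lists, none of whose genes were past the threshold. Of the 8 other exchanger genes, 0 were past the threshold in edgeR or DESeq2, and 0 had an unadjusted p under 0.05 in edgeR. Those under the filter had low levels, from 193 ± 22.9 normalized counts in controls for *Slc9a2* to 19.2 ± 12.6 for *Slc9a4* (SD, n = 4). The epithelial exchanger *Slc9a3* had 93.5 ± 33.5, *Slc9b1* 73.3 ± 12.8, *Slc9b2* 133 ± 18.9 and *Slc9c1*, known from sperm, 65 ± 15.7 (SD, n = 4 controls).

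The proton pump that the organellar exchangers work against was represented by 25 V-ATPase genes, 18 of them tested. Of these, 14 were lower and 4 higher on average, with a median log2 fold change of -0.1, against -0.03 over all genes tested and -0.08 over genes of 10 to 30 kb, the span class of the list's median gene (24.2 kb). With the gene-length offset the median was -0.05, against -0.01 over all genes tested. Of the 18, 1 had an unadjusted p under 0.05, against 19.6% of all genes tested, the share to set beside the other lists too. The treatments did not overlap for *Atp6v0b*, a subunit of the membrane ring (3174 ± 238 against 3683 ± 217 normalized counts, SD, n = 4 each, log2 fold change -0.22), or for *Atp6v0e2* (4778 ± 427 against 5262 ± 106, -0.14), and both were lower. These are 2 of 18, close to the 11.8% of all genes tested that did not overlap. Of 13 tested partners and regulators of the exchangers, 10 were lower and 3 higher (median -0.08, -0.04 with the offset, 1 with an unadjusted p under 0.05). All 6 genes of the list of endosomal and lysosomal chloride/proton exchangers were lower on average (median -0.08, -0.06 with the offset, 1 with an unadjusted p under 0.05). Their log2 fold changes went from -0.16 to -0.007. Those of -0.007, -0.019 and -0.062 were within their SE (0.077, 0.066 and 0.072). Of 5 tested Slc4 bicarbonate transporters 3 were higher and 2 lower (median 0.02, -0.07 with the offset, 1 with an unadjusted p under 0.05). Of the monocarboxylate transporters and the proton channel, 2 of 5 were tested, 1 higher and 1 lower, both with an unadjusted p under 0.05.

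**Figure D5:**
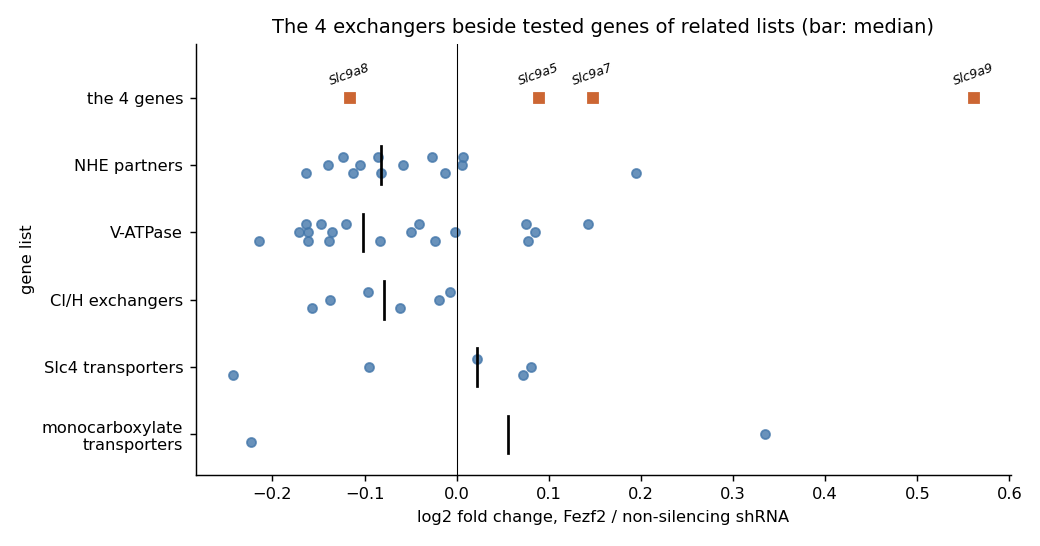
Log2 fold change between treatments (x axis) of the 4 exchangers (squares, top row) and of the tested genes of 5 related lists (circles, bar at the median). The lists lie between -0.24 and 0.34, and none of their tested genes spans over 300 kb. The place of *Slc9a9*, at 0.56, follows from its choice as the gene with the clearest increase.

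For each exchanger, the 3 genes outside the lists with the most similar profile were found as the smallest root mean square difference between centred log2 CPM values over the 8 libraries. For *Slc9a9* these were *Car10*, which encodes a carbonic anhydrase-related protein (difference 0.0517), *Grip1*, a scaffold of glutamate receptors (0.0733), and *Rgs7*, a regulator of G protein signalling (0.0748), where the median over all genes tested was 0.32. All 3 span over 300 kb (503.3, 623.3 and 431.4 kb) and had log2 fold changes of 0.56, 0.5 and 0.52. For *Slc9a7* the nearest genes were *Purg* (0.0267), *Atp13a3* (0.0335) and *Nhsl2* (0.0412), against a median of 0.183, with spans of 1.06, 76.1 and 242.7 kb. For *Slc9a8* they were *Mon1b* (0.0244), *Slc25a39* (0.0339) and *Map7d1* (0.0364), against a median of 0.163. For *Slc9a5* they were *Cpne6* (0.064), *Fam149a* (0.0707) and *Neurl1a* (0.0736), against a median of 0.2. Over 9959 genes some profiles are near by their number alone, and near profiles in the same libraries tend to bring near fold changes. The long spans of the 3 genes near *Slc9a9* are not independent of their fold changes, since fold change differed between span classes. Near spans did not always come with near profiles, as the genes nearest to *Slc9a7* (186.1 kb) show. All of this is a description.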

How the data were processed

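Per the labels and the methods of the study, total RNA libraries (TruSeq) were mapped to mm10 (GRCm38) with TopHat2 2.1.1, and the authors deposited raw read counts per Ensembl transcript interval from bedtools 2.26.0 multiCov, not normalized. Whether strand was used in counting is not given in the sources used here. A second deposited table holds the authors' own comparison and was not used. The 4 genes and all lists were chosen with earlier results of these data known. Of 94647 transcripts, 91320 were placed by GENCODE M21, and the 3327 others held 1.82% of counts. The transcript with the lowest Ensembl number stood for each gene. edgeR 4.0.16 (TMM, quasi-likelihood, Benjamini-Hochberg) in R 4.3.3 was run on the genes over 8 CPM in 4 or more libraries, with no covariate. The steps were tested on simulated data. Named were the 4 genes, *Fezf2*, the other exchanger genes, list genes past the threshold or without overlap, and the 3 nearest profiles. Some genes under this rule are not reported here. Segment differences are of means of log2(normalized count + 1), on segments of at least 1000 bp whose transcripts start within 50 bp. Log2 CPM had a prior count of 2, and the length offset is a loess with a span of 0.3. The alternatives were DESeq2 1.42.0 with and without its prior, other normalizations and filters, the widest transcript, a replicate block, the length offset and each library left out. The 54684016 to 58003814 summed interval counts per library leave replicate spread, not counting error, as the limit for the 4 genes. Figures and further steps used Python 3.11.15.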

Additional observations from a re-analysis of the deposited data

Results flagged for a closer look

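In the first segment of *Slc9a7*, control replicate 2 had 1215 normalized counts, where the other 3 controls had 928.5 to 969.8. Its gap to the nearest control, relative to the whole range, was 0.856, above Dixon's 95% critical value for 4 samples. This is 1 of 38 groups of 4 examined, and chance alone flags about 1 in 20.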

How the results depend on the processing

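Of the other exchanger genes, 0 of those tested were past the threshold under the 19 alternatives (7 of the 8 were tested with more than 1 CPM, 8 with no filter and 2 otherwise), and *Slc9a8* kept its sign in all of them. The counts of all genes past the threshold, 195 increased and 13 decreased, varied widely. They were 128 and 8 with library totals, 79 and 5 with more than 1 CPM, 100 and 3 with no filter, 658 and 94 with DESeq2 without its prior and 645 and 89 with it, 0 and 2 with the gene-length offset and 1 and 1 with this offset and the replicate block. With each library left out, there were 0 to 335 increased and 0 to 33 decreased genes, the lowest for control replicate 1 and the highest for control replicate 2. The replicate block alone gave 84 and 6; same-numbered samples had correlations of 0.307, 0.093, -0.133 and 0.167, so the numbers were not shown to pair the samples. *Slc9a9* was past the threshold in 16 alternatives and not with the length offset (0.25, and 0.249 with the block) or without control replicate 1 (0.547). This count is a description, since *Slc9a9* was chosen on the same contrast and the alternatives share its libraries. *Slc9a7* turned to -0.028 with the length offset, with and without the block, and *Slc9a5* to -0.018 without *Fezf2 shRNA* replicate 2 (at most 0.157, without control replicate 4). With spliced length, an alternative chosen after seeing the data, 0 of the 3 neighbour pairs kept their order, with log2 ratios of -0.066, -1.836 and -0.851; the length used sets this. The causes of the other changes were not tested.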
